A study of Mus musculus with 9 samples.

Results

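Secreted and membrane-bound mediators that activated CD4+ T cells make alongside the cytokines that name their lineage were followed in colitis caused by transferred T cells: TNF, GM-CSF (gene Csf2), IL-2, IL-3, IL-10, IL-21 and RANKL (gene Tnfsf11). The members were picked by name and are 7 of the 23415 symbols in the deposited table. All 7 were found there, under the symbols TNF, CSF2, IL2, IL3, IL10, IL21 and TNFSF11, and are written here in the mouse style. The CD4+ T cells came by sorting from colon lamina propria of Rag1-/- mice, which lack T and B cells of their own, at the height of the disease that follows transfer of naive CD4+ CD25- CD45RBhigh T cells. The donors were CD160 knockout mice (4 libraries) or wildtype littermates (5 libraries, called control), and 5000 cells were sorted per sample. The recipients of both groups shared the Rag1-/- genotype, so that other cells of the colon came from the host. The labels give no age and no sex, do not describe the deleted part of Cd160, and do not state whether libraries stem from different recipients; p-values therefore reflect library-to-library spread, which may be technical. Values are TPM, the abundance of a gene's transcripts corrected for transcript length and library total, which can be compared between genes but keeps no record of sequencing depth.

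These mediators divide the work of an inflamed tissue. TNF acts on almost every cell through its pair of receptors, GM-CSF and IL-3 act on myeloid cells through a shared beta chain, IL-2 and IL-21 act on lymphocytes through the common gamma chain, IL-10 restrains macrophages and T cells and its loss causes colitis in mice, and RANKL acts on osteoclast precursors, dendritic cells and epithelial cells that sample gut antigen. Their genes are switched on by signals from the T cell receptor, through factors of the NFAT, AP-1 and NF-kB families. Many of their mRNAs are short-lived, because proteins such as tristetraprolin (gene Zfp36) bind AU-rich repeats in the 3′ untranslated region and start their decay. TNF and RANKL are made as membrane proteins that metalloproteinases can release, whereas the others are secreted.

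The AU-rich stretches are shown here because they are a feature that some of the mRNAs share and that the choice of genes did not use. Each line gives the 30 bases of the 3′ untranslated region that hold the most copies of the pentamer ATTTA, in the sense direction, with the copies in capitals (GENCODE M21 transcripts, GRCm38). Il3, Il10 and Tnfsf11 hold at most 1 copy in any such window, and only the other members are shown.

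Csf2: taaatATTTATTTATTTATTTATTTAtttt
Tnf: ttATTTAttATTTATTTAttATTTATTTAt
Il2: tATTTATTTAaatATTTAactttaATTTAt
Il21: ttttatATTTAagacaatgtATTTAttttg

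These windows lie, on the minus strand, at chr11:54247325-54247354 for Csf2, chr17:35199678-35199707 for Tnf, chr3:37121039-37121068 for Il2 and chr3:37223636-37223665 for Il21. Csf2 and Tnf each hold 5 copies in their window, Il2 holds 4 and Il21 holds 2. Over the whole 3′ untranslated region, Csf2 had 9 copies in 317 bases and Tnf had 8 copies in 764 bases. Il2 had 7 copies in 581 bases, Il10 had 6 in 706, Tnfsf11 had 6 in 1131, Il21 had 9 in 2578 and Il3 had 1 in 101. Among 21020 genes with such a region, 65.2% held at least 1 copy, and the median was 1.24 copies per kilobase. Csf2 stood at 28.4 copies per kilobase, a density reached by 0.0809% of genes. Il2 stood at 12.0 and Tnf at 10.5, densities reached by 0.699% and 1.04% of genes, whereas the density of Il21, 3.49, was reached by 16.5%.

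**Figure D1:**
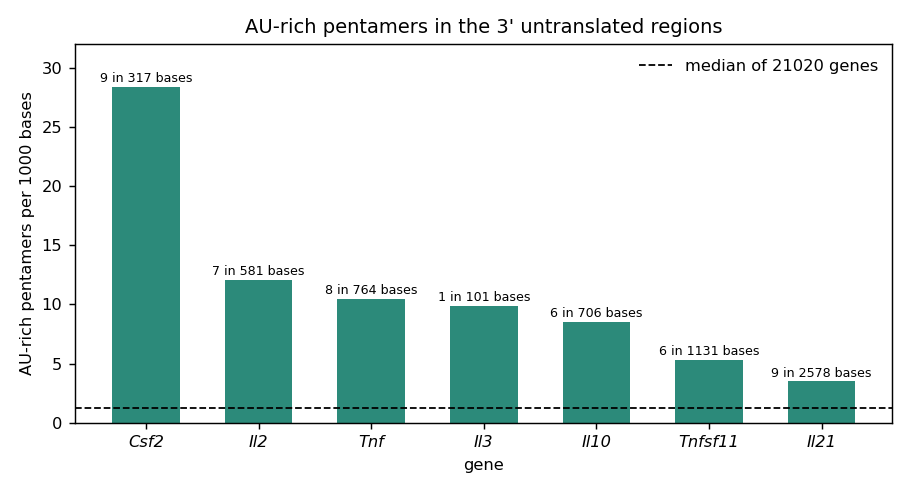
Copies of the AU-rich pentamer per kilobase of 3′ untranslated region (vertical axis) for the 7 genes, with the count and the region's length above each bar and the median of 21020 genes as a dashed line. Csf2 stands highest at 28.4 and Il21 lowest at 3.49, and all 7 bars lie above the median of 1.24.

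Upstream of the start site, the promoters of the most abundant members are shown because factors of T cell receptor signalling bind there. The RefSeq promoter table (GRCm38.p6, 250 bases before to 50 after the start) held 6 of the 7 members. For Csf2 the RefSeq window, chr11:54249850-54250149 on the minus strand, lies wholly upstream of the GENCODE gene, whose start is at 54249667. The motif counts for Csf2 therefore hold for the RefSeq start only. The bases from 210 to 11 before the start are printed for Tnf (chr17:35202018-35202217, minus strand) and Il2 (chr3:37125965-37126164, minus strand), with the matches to the searched motifs in capitals.

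Tnf: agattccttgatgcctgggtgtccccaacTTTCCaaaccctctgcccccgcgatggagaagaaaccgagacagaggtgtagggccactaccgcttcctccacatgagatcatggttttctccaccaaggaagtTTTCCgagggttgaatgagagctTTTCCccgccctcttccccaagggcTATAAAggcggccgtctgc
Il2: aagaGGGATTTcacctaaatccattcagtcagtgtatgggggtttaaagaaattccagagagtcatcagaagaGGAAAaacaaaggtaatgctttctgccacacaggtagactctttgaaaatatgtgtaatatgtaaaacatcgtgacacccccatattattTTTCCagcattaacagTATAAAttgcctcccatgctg

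The motifs, searched on both strands, were GGAAA for NFAT, TGANTCA for AP-1, GGGANTT for NF-kB and TATAAA for the TATA box, and no matches overlapped. All 6 promoters held at least 1 copy of the NFAT core, as did 61.3% of all 32851 promoters in the table. Tnf had 3 copies and Il2 had 2. The TATA box letters were found in 3 of the 6, compared with 13.6% of all promoters. Tnf and Il2 held them on the sense strand, whereas Tnfsf11 held them on the opposite strand only. The NF-kB letters were found in Il2 alone (16.5% of all promoters) and the AP-1 letters in 0 of the 6 (7.81% of all promoters).

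On the GRCm38 map, Tnf (chromosome 17, 35199381 to 35202007, minus strand) sits between the lymphotoxin genes Ltb and Lta. Csf2 (chromosome 11, 54247271 to 54249667) and Il3 (chromosome 11, 54265303 to 54267277), both on the minus strand, are neighbours 15635 bases apart with 0 protein-coding genes between them. Il2 (chromosome 3, 37120523 to 37125959) and Il21 (chromosome 3, 37222759 to 37232636), also on the minus strand, are neighbours 96799 bases apart. They share chromosome 3 with Cd160, which lies 59.7 Mb from Il2 and 59.6 Mb from Il21. Il10 (chromosome 1, 131019845 to 131024974, plus strand) and Tnfsf11 (chromosome 14, 78277445 to 78308043, minus strand) have no other member nearby.

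The libraries were uneven in quality, and control replicate 1 stood apart. It had 7308 genes at 1 TPM or more, compared with 11088 to 11711 in the other 8, and 5 of the 5462 genes that reached 10 TPM in all the others were listed at 0 in it. T cell markers were abundant in all libraries: the summed TPM of 8 such genes (Cd3g and Lck highest) was 4405 to 5529 in knockout libraries, 5385 to 6169 in control replicates 2 to 5 and 1906 in control replicate 1. Cd160 itself ranged from 5.44 to 18.8 TPM in knockout and from 31.8 to 212.4 TPM in control libraries. Macrophage markers were also present. The 12 genes of that list (Lyz2 and C1qb highest) were all above 0 and summed to 8539 to 15287 TPM in knockout libraries, 2356 to 9432 TPM in control replicates 2 to 5 and 1005 TPM in control replicate 1. B cell markers were low (6 genes, summed TPM 0.84 to 12.9, with Ms4a1 and Pax5 listed at 0 in the 8 libraries). Most of that sum was Cd79b, at 2.29 to 12.65 TPM in knockout and 1.51 to 8.06 TPM in control replicates 2 to 5. Results are given from all 9 libraries and from the 8 without control replicate 1. In sorted bulk samples, fewer cells of a type and less RNA per cell cannot be told apart.

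Tnf dominated the group in every library. The knockout libraries, replicates 1 to 4, held 178.6, 127.9, 107.6 and 125.0 TPM, and the controls, replicates 1 to 5, held 30.1, 157.9, 256.9, 135.7 and 268.1 TPM. Control replicates 3 and 5 were the highest of all, and the groups overlapped. Tnf made up 69.1% to 83.5% of the summed TPM of the 7 genes in knockout libraries, 72.3% to 85.5% in control replicates 2 to 5 and 89.1% in control replicate 1. Its mean over 9 libraries, 154.2 TPM, ranked 813th among 11495 tested genes.

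Il2 and Il10, the growth factor and the restraining cytokine, came next at similar levels. In the same order, Il2 held 14.6, 22.9, 16.1 and 11.4 TPM in the knockouts, with controls at 2.36, 19.0, 23.1, 26.2 and 9.78 TPM. Il10 held 7.42, 15.7, 13.9 and 21.2 TPM in the knockouts, with controls at 0.34, 25.4, 10.1, 10.9 and 20.7 TPM. The ranges of the groups overlapped for both genes. Among the 5 members above the filter used below, Il10 varied most between the 8 libraries without control replicate 1, with a highest value 3.42 times the lowest.

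Tnfsf11 and Il21 were lower and steadier. Tnfsf11, encoding RANKL, held 6.72, 11.3, 10.9 and 11.8 TPM in the knockouts, with controls at 0.54, 7.43, 7.64, 9.89 and 6.78 TPM. Knockout replicates 2 to 4 lay above every control, but knockout replicate 1 lay below all controls except replicate 1. Il21, a cytokine of follicular helper and Th17 cells, held 6.08, 6.95, 3.51 and 6.60 TPM in the knockouts, with controls at 0.40, 4.69, 6.44, 4.88 and 8.07 TPM. Knockout replicate 3 was lower and control replicate 5 higher than the rest of these libraries, control replicate 1 aside.

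The myeloid growth factors were close to the lower end of what the table records. Csf2 held 0.48, 0.35, 0 and 0 TPM in the knockouts, with controls at 0.05, 0.16, 0.48, 0.09 and 0.15 TPM. Il3 was listed at 0 in 8 libraries and at 0.11 TPM in knockout replicate 4. Neither reached 1 TPM in any library, so both fell under the filter of the main fit (at least 1 TPM in at least 4 libraries), and the depth behind these values is unknown.

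The order of the levels was Tnf, Il2, Il10, Tnfsf11, Il21, Csf2 and Il3, by the mean and by the median over 9 libraries. Neighbours in that order were compared within libraries with an exact two-sided sign-flip permutation test on log2(TPM + 1), adjusted over 6 pairs. The order was taken from the same libraries, so the p-values describe it and do not test an order set in advance. Tnf exceeded Il2 in 9 of 9 libraries, by 3.17 ± 0.700 on the log2 scale (SD, n = 9; exact adjusted p = 0.0117). Il2 and Il10 did not differ beyond their spread, with Il2 higher in 6 of 9 libraries, a mean difference of 0.33 ± 0.896 (SD, n = 9) and an exact adjusted p of 0.289. Il10 exceeded Tnfsf11 and Tnfsf11 exceeded Il21, each in 8 of 9 libraries, by 0.57 and 0.50, both with an exact adjusted p of 0.0293. Il21 exceeded Csf2 in 9 of 9 libraries, by 2.26 (exact adjusted p = 0.0117). Csf2 exceeded Il3 in 7 of 9 libraries, by 0.22 (exact adjusted p = 0.0375), and without control replicate 1 this p was 0.0563, over 8 libraries.

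**Figure D2:**
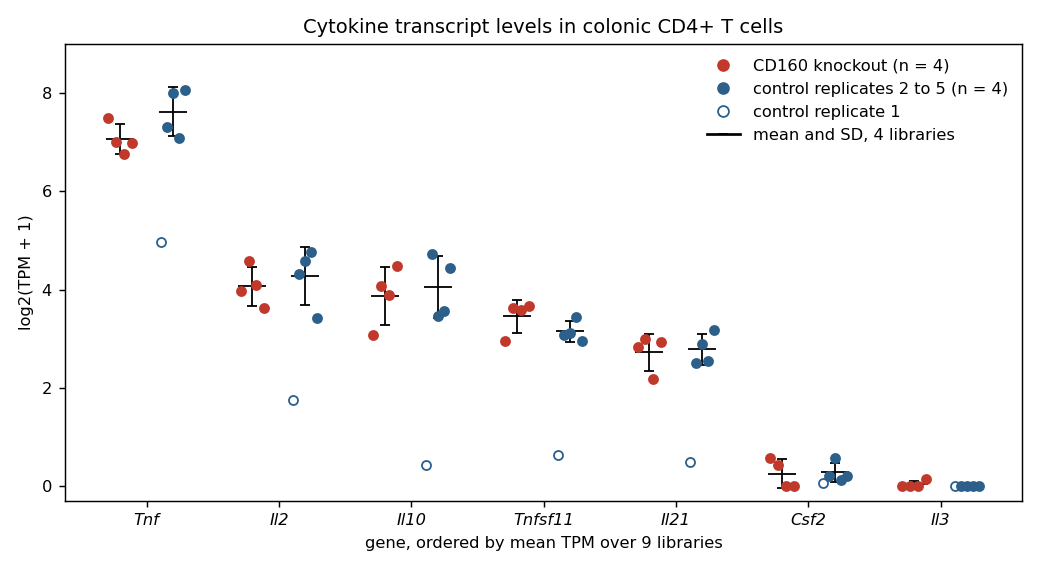
Transcript levels of the 7 genes as log2(TPM + 1) (vertical axis) in 4 CD160 knockout and 5 control libraries, with the mean and SD of the 4 knockout libraries and of control replicates 2 to 5. Tnf stands highest and Csf2 and Il3 lie near 0, and the open points of control replicate 1 lie below the other controls for the 5 genes from Tnf to Il21.

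Against controls, 0 of the 7 members passed the threshold, an adjusted p under 0.05 in limma across all tested genes, and 0 of the 7 had groups that did not overlap. Over all 11495 tested genes, 2 passed (0.0174%; 0.0087% higher and 0.0087% lower in knockout) and 4.93% did not overlap with 9 libraries. Without control replicate 1, 3 of 11457 passed (0.0262%; 0.00873% higher and 0.0175% lower) and 7.02% did not overlap, again with 0 of the 7 members among them. The genes called in both fits were Tmod4, higher in knockout, and TDTOMATO, lower, and the 8-library fit added Ets1, lower. Tmod4 and TDTOMATO are named outside the rule for genes, and why TDTOMATO differed between the groups was not tested. At an unadjusted p under 0.05 there were 0 members with 9 libraries and 1, Tnf, with 8, compared with 6.39% and 12.8% of all genes. Only 5 members passed the filter on low values. Cd160 itself had groups without overlap, with an adjusted p in limma of 0.572 with 9 libraries and 0.113 with 8. The threshold thus missed the knocked-out gene, and a lack of calls does not show a lack of change. The median difference of all genes was 0.46 with 9 libraries and -0.014 with 8, so that the library left out moved most genes.

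Tnf had the largest difference toward lower values once control replicate 1 was left out. Its mean was 134.8 ± 30.6 TPM in knockout (SD, n = 4) and 204.7 ± 67.6 TPM in control libraries (SD, n = 4), a log2 difference of -0.56 (standard error 0.25). The 95% interval ran from -1.12 to -0.0057, and the p was 0.0482 before adjustment and 0.386 after adjustment over all genes in limma. By exact permutation, two-sided, p was 0.143. In the fit of these 8 libraries without the filter on low values the interval ran from -1.15 to 0.029. With T cell scaling the difference was -0.33 (standard error 0.23). With all 9 libraries the difference was -0.030, with an interval from -1.35 to 1.29 and an adjusted p of 0.976. Knockout values lay below control replicates 3 and 5 but overlapped control replicates 2 and 4, at 157.9 and 135.7 TPM. Control replicates 3 and 5 also had the highest Cd8a, a CD8 T cell marker, at 81.2 and 86.1 TPM compared with 3.06 to 23.9 TPM in the other 7 libraries. The other CD8 T cell marker examined, Cd8b1, did not follow. It was highest in a knockout library, at 9.88 TPM, and reached at most 6.21 TPM in control replicates 2 to 5. Whether the Cd8a transcripts came from CD8 T cells was not tested. Control replicates 3 and 5 had the lowest macrophage sums of the 8 libraries, 2544 and 2356 TPM. When the macrophage list was added to the fit of 8 libraries as a covariate, the Tnf difference was 0.14 (standard error 0.18). The same covariate in the fit of 9 libraries gave -0.82 (standard error 0.78), so that its effect on the Tnf value had opposite signs with and without control replicate 1. What part macrophages or cells with Cd8a transcripts had in the Tnf values was not tested.

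Tnfsf11 had the largest difference toward higher values. Its mean was 10.2 ± 2.32 TPM in knockout (SD, n = 4) and 7.94 ± 1.35 TPM in control replicates 2 to 5 (SD, n = 4), a log2 difference of 0.31 (standard error 0.20, interval from -0.14 to 0.75). The adjusted p in limma was 0.578 and the exact permutation p was 0.171. With 9 libraries the difference was 0.81 (standard error 0.56, adjusted p = 0.745). The members' shares, which do not depend on the scaling of a library, showed the same overlap: Tnfsf11 made up 3.14% to 7.19% of the summed TPM in knockout libraries and 2.16% to 5.27% in control replicates 2 to 5. With the macrophage covariate in the 8-library fit the Tnfsf11 difference was -0.065.

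For Il2, Il10 and Il21 the means of the groups were close. Il2 averaged 16.2 ± 4.84 TPM in knockout and 19.5 ± 7.12 TPM in control replicates 2 to 5 (SD, n = 4 each), with a log2 difference of -0.21 and an interval from -0.91 to 0.49. Il10 averaged 14.6 ± 5.68 and 16.8 ± 7.51 TPM, with -0.17 and an interval from -1.003 to 0.66. Il21 averaged 5.79 ± 1.56 and 6.02 ± 1.58 TPM, with -0.057 and an interval from -0.59 to 0.47. These intervals include 0 but do not exclude a difference in either direction. With 9 libraries the differences were 0.30, 0.55 and 0.40 and thus of the opposite sign, with adjusted p values in limma of 0.786, 0.745 and 0.745. Control replicate 1 held 12.1%, 2.03% and 6.64% of the mean of the other controls for Il2, Il10 and Il21. For Csf2, in a fit without a filter, the difference was 0.014 with 9 libraries and -0.027 with 8. For Il3 the fitted difference was 0.038 in both, which rests on the 0.11 TPM of knockout replicate 4, and no fold is given because the controls were all listed at 0.

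**Figure D3:**
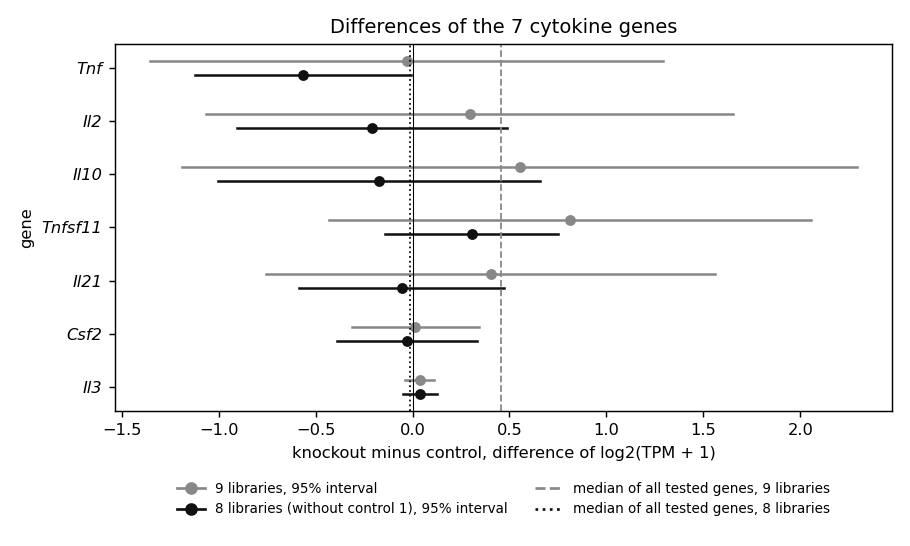
Knockout minus control difference of log2(TPM + 1) for each gene (horizontal axis) with its 95% interval, from all 9 libraries in grey and without control replicate 1 in black, and the median of all tested genes as vertical lines at 0.46 and -0.014. The grey points of Tnf, Il2, Il10, Il21 and Tnfsf11 lie to the right of the black ones, and that of Csf2 slightly so. Of the 14 intervals only that of Tnf without control replicate 1 stops short of 0, at -0.0057.

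The shares of the other members in the summed TPM overlapped between the groups for each gene. Il2 took 6.46% to 12.4% of the summed TPM in knockout libraries and 3.12% to 13.9% in control replicates 2 to 5. Il10 took 3.47% to 12.0% and 3.31% to 11.8%. The share of Il21 was 2.31% to 3.76% in the knockout libraries and 2.11% to 2.60% in these controls. The summed TPM itself was 152.0 to 213.9 in knockout libraries, 187.6 to 313.6 in control replicates 2 to 5 and 33.8 in control replicate 1.

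**Figure D4:**
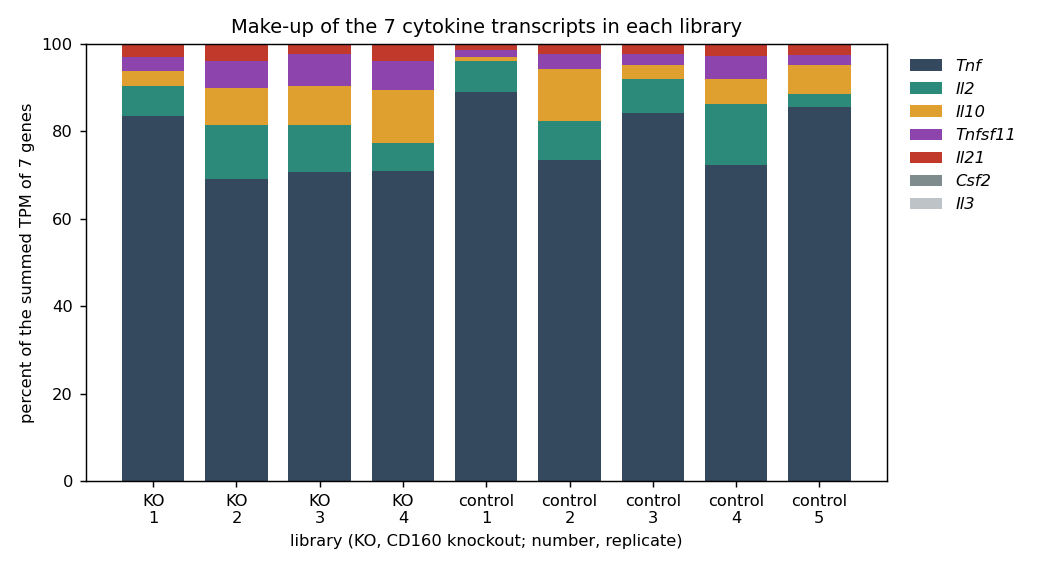
Share of each gene in the summed TPM of the 7 genes (vertical axis, percent) for every library. Tnf fills 69.1% to 89.1% of each bar, and the bar of control replicate 1 has the smallest Il10 part, 1.006%.

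Receptor transcripts for these cytokines differed widely in level in the sorted samples, with Il2rg, Il2rb and Il21r the most abundant. Il2rg, the common gamma chain, stood at 846.1 to 1117 TPM in knockout libraries and at 953.9 to 1119 TPM in control replicates 2 to 5. Il2rb, the signalling chain for IL-2, stood at 198.9 to 304.7 and 163.2 to 271.5 TPM, and Il21r at 160.3 to 177.9 and 139.7 to 217.9 TPM. Il2ra, the high-affinity chain, was far lower at 7.28 to 10.95 and 6.88 to 10 TPM. The groups overlapped for all 4 genes. Of the RANKL receptors, Tnfrsf11a stood at 0.78 to 2.51 and 0.66 to 1.57 TPM, and the decoy receptor Tnfrsf11b was below 1 TPM in every library.

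No chain for TNF, IL-10 or the myeloid growth factors passed the threshold either. Of 14 receptor genes 13 were tested, and 0 passed the adjusted threshold in limma with 9 or 8 libraries. With 8 libraries 11 differences were positive and 2 negative, with a median of 0.40 compared with -0.014 for all genes, and 4 of 13 genes had groups that did not overlap, compared with 7.02% of all genes. Those 4, singled out after their values were seen, were Il10ra, Tnfrsf1a, Csf2rb and Csf2rb2. Il10ra, the ligand-binding chain for IL-10, stood at 72.4 to 94.7 TPM in knockout and 32.8 to 56.6 TPM in control replicates 2 to 5, a log2 difference of 0.92 (standard error 0.18, limma adjusted p = 0.117). Its partner Il10rb, at 64.1 to 133.5 and 69.5 to 78.8 TPM, overlapped. Tnfrsf1a, the TNF receptor found on most cells, stood at 57.1 to 67.6 and 39.9 to 49.2 TPM, a difference of 0.43 (adjusted p = 0.145). Tnfrsf1b, the TNF receptor of lymphocytes and myeloid cells, stood at 68.3 to 73.0 and 53.3 to 72.1 TPM.

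Csf2rb, the beta chain shared by GM-CSF and IL-3, stood at 27.7 to 57.8 TPM in knockout and 7.5 to 22.6 TPM in control replicates 2 to 5, a log2 difference of 1.43 (adjusted p = 0.173 in limma). Csf2rb2, the mouse beta chain for IL-3 alone, had 1.11 (adjusted p = 0.151), and because it is a near-identical copy of Csf2rb the division of reads between the genes is uncertain. Csf2ra, the GM-CSF binding chain, stood at 46.4 to 69.2 and 12.0 to 46.5 TPM, a difference of 1.45 (adjusted p = 0.183), and Il3ra at 6.51 to 15.3 and 5.12 to 10.1 TPM. Macrophages carry these chains, and all 12 macrophage markers had positive differences in the same fit, with a median of 1.39 and 0 of 12 past the threshold. On the mean log2(TPM + 1) of that list the groups stood at 7.62 and 6.17 (exact permutation p = 0.0857 with 8 libraries and 0.0476 with 9). Their part in the receptor values was not tested.

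**Figure D5:**
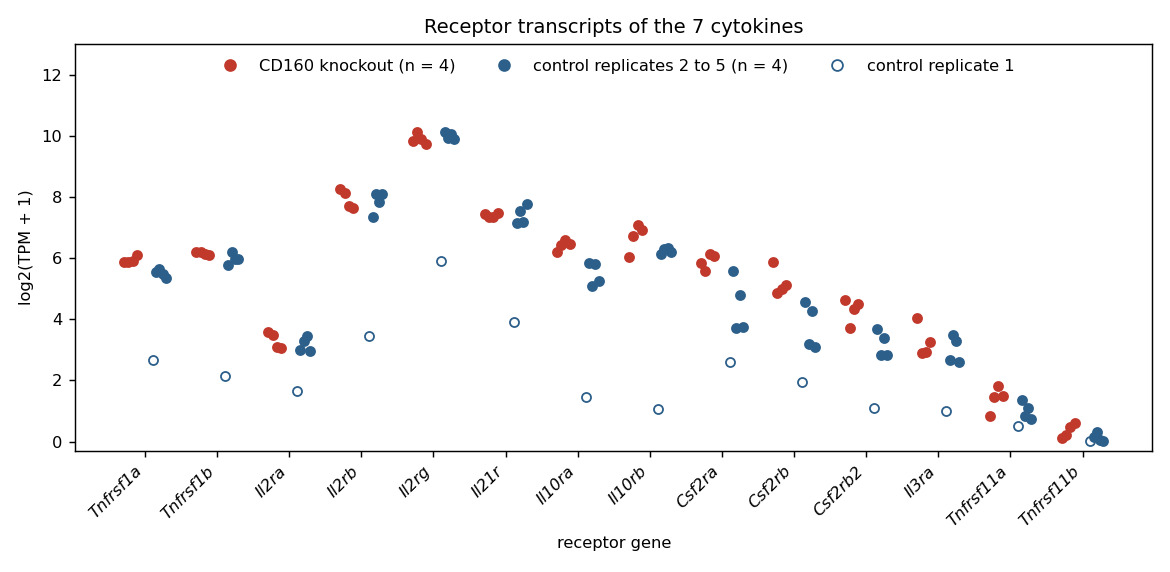
Levels of 14 receptor genes as log2(TPM + 1) (vertical axis) in 4 CD160 knockout libraries, control replicates 2 to 5 and control replicate 1. The knockout points of Il10ra, Tnfrsf1a, Csf2rb and Csf2rb2 lie above all control points, whereas those of Il2rg, Il2rb and Il21r overlap them.

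Regulators of cytokine transcription did not pass the threshold, with the exception of Ets1. Of 26 tested genes, 0 passed with 9 libraries and 1, Ets1, passed with 8, where 7 differences were positive and 19 negative and the median was -0.087. Ets1, a factor that binds promoters of T cell genes, held 162.9, 192.6, 172.5 and 115.8 TPM in the knockouts, and control replicates 2 to 5 held 404.8, 482.9, 500.6 and 512.3 TPM. It fell by 1.57 on the log2 scale (standard error 0.15, limma adjusted p = 0.0167). Control replicate 1 held 11.4 TPM, and with that library the difference was -0.52 (limma adjusted p = 0.772). The T cell list was also lower in this fit, with 0 of 8 differences positive and a median of -0.21, and all 12 macrophage differences were positive. The call was lost with the macrophage covariate in the 8-library fit (difference -1.36, adjusted p = 0.153 in limma) and with the replicate number as a block, which keeps only the 6 libraries numbered 2 to 4 (difference -1.55, adjusted p = 0.495). With T cell scaling the difference was -1.34 (adjusted p = 0.0030). The most abundant regulators were the AP-1 members Junb, Fos and Jun, at 1693 to 2233, 525.6 to 796.6 and 273.4 to 416.2 TPM in knockout libraries. In control replicates 2 to 5 they stood at 1838 to 2754, 544.7 to 830.5 and 364.2 to 483.6 TPM.

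Genes that govern the stability and release of cytokine mRNA and protein were also without a call, 0 of 14 in either fit. With 8 libraries 8 differences were positive and 6 negative, and the median was 0.052. Zfp36, whose product binds the AU-rich repeats shown above, stood at 254.6 to 288.9 TPM in knockout and 169.0 to 257.0 TPM in control replicates 2 to 5, a log2 difference of 0.38 (standard error 0.14, limma adjusted p = 0.301). Its relative Zfp36l1 stood at 35.6 to 86.0 and 51.6 to 71.9 TPM. Adam17, the protease that releases TNF from the membrane, stood at 34.5 to 41.6 TPM in knockout and 21.4 to 29.9 TPM in these controls without overlap, a difference of 0.49 with an adjusted p of 0.172. Adam10, a related protease, overlapped at 39.4 to 53.2 and 25.5 to 48.4 TPM. The other gene of the list without overlap, Zc3h12a, an RNase that degrades cytokine mRNAs, stood at 6.27 to 7.67 and 8.29 to 10.1 TPM (difference -0.31, adjusted p = 0.363), and was named after its values were seen. Thus 2 of 14 genes had groups without overlap with 8 libraries, compared with 7.02% of all genes.

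Early target and feedback genes of these cytokines, 14 in number, also had 0 past the threshold in either fit, with 10 positive and 4 negative differences and a median of 0.19 with 8 libraries. The NF-kB inhibitors Nfkbia and Tnfaip3, which TNF signalling induces, stood at 345.3 to 556.2 and 169.1 to 283.7 TPM in knockout libraries and at 316.4 to 476.3 and 87.8 to 229.1 TPM in control replicates 2 to 5. Cish, a target of IL-2 signalling through STAT5, stood at 126.8 to 220.6 and 182.8 to 238.5 TPM, a difference of -0.34 with an adjusted p of 0.426 in limma. Socs3, a target of STAT3 that IL-10 and IL-21 can activate, stood at 137.1 to 208.8 and 60.5 to 115.5 TPM without overlap, a difference of 0.91 with an adjusted p of 0.154. Macrophages also make Socs3, and their part in its values was not tested. Nfkbie, a further NF-kB inhibitor, stood at 36.5 to 41.4 TPM in knockout and 28.5 to 31.8 TPM in control replicates 2 to 5. Birc3, an apoptosis inhibitor, stood at 44.1 to 52.5 and 34.6 to 42.9 TPM. Both likewise had groups without overlap and were named after their values were seen. In this list 3 of 14 genes had groups without overlap with 8 libraries, compared with 7.02% of all genes.

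Among 22 other T cell cytokine genes, 17 were tested and 0 passed with 9 or 8 libraries; with 8, 7 differences were positive and 10 negative, with a median of -0.098. Ltb, the lymphotoxin beta gene beside Tnf, was more abundant than any of the 7 members at 490.1 to 927.1 TPM in knockout and 492.6 to 681.4 TPM in control replicates 2 to 5. Cd40lg, the CD40 ligand of helper cells, stood at 115.2 to 260.2 and 165.0 to 265.9 TPM, Ifng at 75.2 to 137.6 and 99.0 to 231.6 TPM, and Fasl, the death ligand, at 65.3 to 103.7 and 83.9 to 125.3 TPM. The groups overlapped for all 4. Il4, the Th2 cytokine, was the gene of the list without overlap, at 1.06 to 4.76 TPM in knockout and 4.96 to 18.4 TPM in these controls (difference -1.55, adjusted p = 0.194), and was named after its values were seen. It was 1 of 17 tested genes, compared with 7.02% of all genes without overlap.

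The helper states known to make the members showed 0 of 15 genes past the threshold in either fit, with 8 positive and 7 negative differences and a median of 0.017 with 8 libraries. Cxcr3, a Th1 chemokine receptor, stood at 223.4 to 299.2 TPM in knockout and 218.6 to 308.7 TPM in control replicates 2 to 5. Il7r, the survival receptor of resting and memory T cells, stood at 80.9 to 184.2 and 116.5 to 178.6 TPM, Lag3, a receptor of IL-10 producing and exhausted T cells, at 88.0 to 149.4 and 64.2 to 209.4 TPM, and Sh2d1a, an adaptor of follicular helper cells, at 91.7 to 141.8 and 91.0 to 110.3 TPM. Foxp3, the factor of regulatory T cells, another source of IL-10, stood at 5.59 to 14.1 and 8.20 to 12.8 TPM and was named outside the rule for genes.

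For each of the 5 members above the filter, the genes of most similar pattern were sought by the mean absolute difference of log2(TPM + 1), centred on each gene's mean, over the 8 libraries without control replicate 1 and 8643 other genes of at least 5 TPM. Closest to Tnf was Snai3, a zinc-finger gene, at 0.12 on the log2 scale, followed by Nr4a3, a receptor-induced nuclear factor, at 0.12 and Gcnt2, a glycosyltransferase, at 0.13. Tnf's own mean deviation was 0.39. Nr4a3 held 4.49, 4.38, 3.79 and 4.50 TPM in the knockouts, and control replicates 2 to 5 held 6.33, 9.21, 5.05 and 10.4 TPM, highest in replicates 3 and 5 as for Tnf.

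Closest to Il21 were Ckap2, Ncaph and Kif22, genes of the mitotic spindle and of chromosome condensation, at 0.058, 0.064 and 0.066, compared with Il21's own mean deviation of 0.26. Ckap2 held 10.9, 11.4, 5.83 and 10.4 TPM in the knockouts, and control replicates 2 to 5 held 7.51, 10.6, 7.13 and 13.4 TPM, with its lowest value in knockout replicate 3 and its highest in control replicate 5, as for Il21. Closest to Tnfsf11 were Cyb5r3, Casp9 and Tmem107, at 0.089, 0.090 and 0.092 (own deviation 0.28). Those closest to Il2 were Fem1a, F2rl2 and Ctla2a, at 0.16, 0.16 and 0.17 (own deviation 0.39), and those closest to Il10 were Pdk2, Creb3l2 and Enpp5, at 0.22, 0.26 and 0.28 (own deviation 0.46). No member was among the 3 closest genes of another. These genes were the closest of many candidates in a few libraries and are given as a description.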

How the data were processed

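TPM values were computed and deposited by the authors; per the submitters' processing notes, the tools were RSEM 1.2.31, Bowtie2 2.2.9 and Trimmomatic 0.32 and the build was GRCm38; settings and annotation are not given in the sources used here. Libraries were of the SMART-Seq2 kind, per the labels' protocols. TPM keeps no depth, so no counting error can be given, and abundant transcripts lower all others in a library. Symbols were matched by name; positions and 3′ untranslated regions (longest per gene) come from GENCODE M21, promoters from RefSeq.

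Differences come from limma 3.58.1 in R 4.3.3 (with an intensity trend), run on log2(TPM + 1) after dropping genes that reached 1 TPM in fewer than 4 libraries, with Benjamini-Hochberg adjustment over all tested genes and a threshold of 0.05; the scale understates changes of low genes. Csf2 and Il3 were fitted without the filter. The fit was tested on simulated data. Exact permutation tests are two-sided; the smallest p is 0.0159 for 4 against 5 libraries and 0.0286 for 4 against 4. Genes named are the members, all receptors, the 4 most abundant and any called gene of each list, the 2 most abundant markers of a list and the 3 most similar genes; exceptions are stated. Members and lists were chosen with earlier results of these data known. Marker lists not given in the report are in the closing section. Figures used matplotlib 3.10.9 in Python 3.11.15.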

Additional observations from a re-analysis of the deposited data

Results flagged for a closer look

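4 values of the members stood far from the rest of their group, by Dixon's ratio of the gap to the range on log2(TPM + 1). Chance flags about 1 in 20 groups, and 19 groups were examined, among them the controls with and without replicate 1. Control replicate 1 was the low library for Il21, at 0.40 TPM (ratio 0.750), and for Tnfsf11, at 0.54 TPM (ratio 0.828), both above the critical value of 0.71 for 5 libraries. Knockout replicate 1 was the low knockout library for Tnfsf11, at 6.72 TPM beside 10.9 to 11.8 TPM in the other 3 (ratio 0.864, critical value 0.829). Il3 was listed at 0 in 3 knockout libraries and at 0.11 TPM in knockout replicate 4, which gives a ratio of 1.0.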

How the results depend on the processing

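In 159 fits of single members under other settings 0 passed the threshold, and the lowest adjusted p in limma was 0.111, for Tnf with library quality weights. Leaving out 1 library moved the difference between -0.56 and 0.22 for Tnf, -0.091 and 0.098 for Csf2, -0.21 and 0.54 for Il2, -0.17 and 0.90 for Il10, -0.057 and 0.62 for Il21, and 0.31 and 1.011 for Tnfsf11. The lowest value was that without control replicate 1 in each of these but Csf2. Tnf also moved from -0.030 to -0.63 with median-of-ratios scaling (limma adjusted p = 0.674) and to -0.73 with library quality weights. The median of all genes moved from 0.46 to 0.018 with median-of-ratios scaling, and without control replicate 1 from -0.014 to 0.22 with T cell scaling. Signs opposite to the 9-library value came with a pseudocount of 0.1 (Csf2 -0.17), median-of-ratios scaling (Csf2 -0.053, Il2 -0.23), quantile normalization (Csf2 -0.017, Il2 -0.27), library quality weights (Csf2 -0.039, Il2 -0.095, Il21 -0.19) and the macrophage covariate (Il2 -0.98, Il10 -1.45, Il21 -0.38, Tnfsf11 -0.55). Without control replicate 1 they came with median-of-ratios scaling (Csf2 -0.023, Il2 -0.21, Il10 -0.17, Il21 -0.052) and the macrophage covariate (Tnf 0.14, Il2 -0.43, Il10 -0.78, Tnfsf11 -0.065). Against the 8-library values themselves, T cell scaling gave the opposite sign for Il2 (0.024), Il10 (0.061) and Il21 (0.18). It moved Tnf from -0.56 to -0.33 (limma adjusted p = 0.365) and Tnfsf11 from 0.31 to 0.54 (limma adjusted p = 0.139). The macrophage covariate gave the opposite sign to the 8-library value for Tnf, Tnfsf11, Csf2 (0.32) and Il21 (0.38).

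Same-numbered libraries did not deviate together from their group means. The correlations were -0.14 to -0.017 with 9 libraries, and -0.22, -0.16 and 0.001 with 8. So few libraries per group cannot settle whether the numbers pair them. With the replicate block, Tnf had 0.22 on numbers 1 to 4, and without control replicate 1 Csf2 had -0.16 and Il2 -0.46; 0 genes passed in either block fit.

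Over all genes, 2 passed. The count was 1 with a pseudocount of 5, quantile normalization, T cell scaling or the macrophage covariate, 0 with no filter or a filter of 5 TPM, 521 with library quality weights, and 0 to 3 with 1 library left out. Without control replicate 1 it was 4 with median-of-ratios scaling, 6 with T cell scaling and 1 with the macrophage covariate. An unadjusted exact permutation test passed 1292 genes, 17 of them in the pathway lists. In those lists, 0 passed with 9 libraries, 9 with library quality weights, 0 to 1 with 1 library left out, and 1 (Ets1) without control replicate 1 with median-of-ratios or T cell scaling; without that library, 0 passed with the macrophage covariate or the block. The cause of these changes was not tested. Csf2 and Il3 were not run with filters or T cell scaling, and Il3 has no value without knockout replicate 4. Depth is unknown, which limits statements on both.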

Other observations

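Markers of other cell types that such a sort could hold were compared with the exact two-sided permutation test on their mean log2(TPM + 1), over 8 libraries. Summed TPM in knockout libraries and in control replicates 2 to 5 was 105.9 to 212.6 and 61.4 to 151.0 for 8 dendritic cell genes (exact p = 0.200), 42.9 to 160.4 and 27.8 to 83.9 for 7 neutrophil genes (exact p = 0.514), and 1.37 to 58.0 and 3.67 to 103.9 for 10 mast cell and basophil genes (exact p = 0.486), of which Mcpt8 was listed at 0. It was 742.1 to 1035 and 820.4 to 951.9 for 7 NK and innate lymphoid genes (exact p = 0.314), 6.70 to 33.8 and 5.57 to 87.4 for 2 CD8 T cell genes (exact p = 0.400), 58.6 to 100.4 and 40.2 to 178.6 for 8 epithelial genes (exact p = 0.257), and 67.0 to 365.5 and 69.8 to 149.3 for 8 stromal genes (exact p = 0.171). Nearly all of the NK and innate lymphoid sum was Id2, at 735.3 to 1029 TPM in knockout and 812.3 to 938.6 TPM in these controls. The next gene of that list, Klrb1c, averaged 4.54 TPM over 9 libraries. It stood at 1.61 to 4.46 TPM in knockout and 1.48 to 17.6 TPM in these controls. Ncr1, named outside the rule for genes, stood at 0 to 0.90 and 0.79 to 23.3 TPM. The values for 6 B and plasma cell genes, 2.45 to 12.9 and 1.63 to 8.07, had an exact p of 0.171, and the T cell list had an exact p of 0.0571.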
